A study of Bos taurus with 16 samples.

Results

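Glucose uptake and glycogen genes were examined as a set of 10 genes in the skeletal muscle of newborn calves. The members were taken by gene symbol, and each symbol was matched to 1 NCBI gene ID: SLC2A1 (282356), SLC2A4 (282359), HK1 (280817), HK2 (788926), GYS1 (786335), GBE1 (615745), PYGM (327664), PPP1R3C (539466), TXNIP (506790) and PDK4 (507367). All 10 of these members were found among the 34109 genes of the count tables, and all 10 had reads in every library. RNA was sequenced from the round muscle of the hind leg and from the sirloin muscle of the loin of 8 male Hanwoo calves, a Korean beef breed, immediately after birth. The dams of 4 control calves were fed at 100% of their nutritional requirement, and the dams of 4 treated calves were fed at 150% from mid to late pregnancy. The study's methods state that the calves were taken from their dams before they drank any colostrum. Each calf gave 1 round and 1 sirloin library, so that diets were compared within a muscle over 4 against 4 calves and muscles were compared within the 8 calves. Replicate numbers 1 to 4 name the calves of a diet, and the same number marks both muscles of a calf.

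Glucose enters muscle fibres through the transporters GLUT1, encoded by SLC2A1, which serves basal uptake, and GLUT4, encoded by SLC2A4, which moves to the membrane in response to insulin and contraction. Hexokinases trap it as glucose 6-phosphate, which is stored as glycogen by glycogen synthase and the branching enzyme and released again by glycogen phosphorylase. TXNIP, an alpha-arrestin, lowers glucose uptake by removing transporters from the membrane, and PDK4, a pyruvate dehydrogenase kinase, blocks the entry of pyruvate into oxidation, so that it is known as a gene of fasted muscle. Muscle of a newborn passes from the steady placental glucose supply to its own stores.

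Library totals ranged from 44473011 to 72446933 counts, and the member with the fewest reads in any library, SLC2A1, had 92 to 815 counts. Defining genes of skeletal muscle (7 of 8 listed genes matched) summed to between 49790 and 89030 TPM (a unit of transcript abundance corrected for gene length and library size) in every library. The sirloin library of treated calf 4 stood apart in adipocyte markers, whose 6 genes summed to 3962 TPM against 61.8 to 121 TPM in the other sirloin libraries. The round library of treated calf 2 stood apart in slow fibre markers, whose 8 genes summed to 75840 TPM against 13680 to 36390 TPM in the other round libraries. Its 9 matched fast fibre markers had the lowest sum, 20230 TPM. The slow fibre sum of treated calf 3, 36390 TPM, was also above the control range of 13680 to 21870 TPM. Treated calves 1 and 4, at 20870 and 15910 TPM, lay within that range. Between the diets all 8 slow fibre markers were higher in treated round muscle, with a median log2 fold change of 0.98. None passed after adjustment. In sirloin muscle 2 of the 8 were higher and 6 lower, with a median of -0.20. Red blood cell markers (11 genes) summed to 14.2 to 41.4 TPM in treated and to 4.04 to 19.8 TPM in control libraries. The part of these cell types in the results on glucose genes was not tested, beyond the values without single libraries given beside them. In bulk muscle, fewer cells of a type and less RNA per cell cannot be told apart.

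The members spanned a wide range of levels. PDK4 was the most abundant, with a median of 2448 TPM in round and 2632 TPM in sirloin muscle over 8 libraries each, and it ranked 49th among all genes in both muscles. PYGM, the muscle isoform of glycogen phosphorylase, followed with medians of 2162 and 2224 TPM. The ranges of these 2 genes overlapped, and PYGM was the lower of the pair in 5 of 8 round and 6 of 8 sirloin libraries. TXNIP came next with 895 and 1193 TPM, below PYGM in all 8 libraries of both muscles. GYS1, the muscle glycogen synthase, had medians of 164 and 209.6 TPM, again below the preceding gene in every library.

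SLC2A4 had the higher median of both member transporters. It was 57.8 TPM in round and 85.9 TPM in sirloin muscle, while SLC2A1 had medians of 5.62 and 4.96 TPM. HK2, the insulin-regulated hexokinase of muscle, had medians of 47.1 and 44.5 TPM and lay above HK1, the housekeeping hexokinase, at 4.45 and 3.78 TPM. PPP1R3C, a scaffold that brings protein phosphatase 1 to glycogen, had a median of 51.3 TPM in round and 21.7 TPM in sirloin muscle, so that its order with HK2 differed between the muscles. These 2 genes could not be ranked in round muscle, where HK2 was the lower in 5 of 8 libraries. GBE1, the glycogen branching enzyme, had medians of 14.7 and 19.8 TPM. SLC2A1 and HK1 closed the order, with HK1 below SLC2A1 in 6 of 8 libraries of each muscle.

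**Figure D1:**
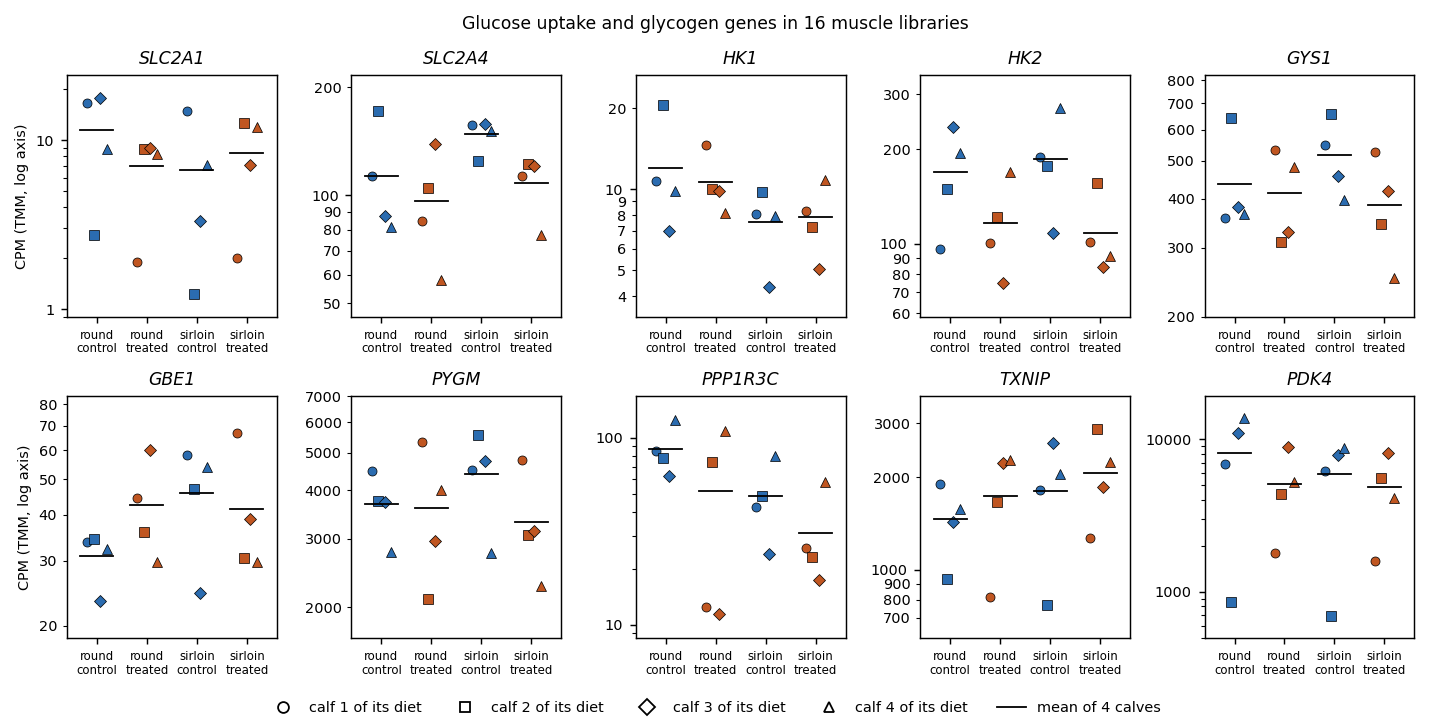
Levels in CPM (counts scaled to library size with TMM factors, log axis) of the 10 members in the 16 libraries, with 1 panel per gene, marker shapes for the 4 calves of each diet (blue control, orange treated) and a line at the mean of each group. Control and treated points overlapped in both muscles for every member except SLC2A4 in sirloin muscle, and PDK4 ran from 691 to 13810 CPM.

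The first question was whether overfeeding of the dam went with a different level of these genes in either muscle. By edgeR's quasi-likelihood test on the counts, 0 of 10 members passed an adjusted p-value of 0.05 in round muscle, where 0.0185% of all genes tested did. At an unadjusted p-value below 0.05, 0 of 10 members were called, against 4.41% of all genes, and DESeq2 and limma-voom also called 0 before and after adjustment. In sirloin muscle 0 of 10 members passed the adjusted threshold, against 0.00918% of all genes, and 1 member, HK2, was below 0.05 without adjustment, against 3.91% of all genes. DESeq2 called 0 members after adjustment and the same 1 without it, and limma-voom called 0 and 2, the second being SLC2A4. The log2 fold changes below are treated minus control, and the median over all genes was 0.02 in round and 0.03 in sirloin muscle.

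Among the transporters, SLC2A4 was the only member whose CPM did not overlap between the diets. In sirloin muscle control calves 1 to 4 had 157, 124, 158 and 151 CPM, and treated calves 1 to 4 had 113, 122, 120 and 77.3 CPM. All 4 treated calves lay below all 4 controls, as was the case in either direction for 1.68% of all genes. Control calves had a mean of 148 ± 15.93 CPM (SD, n = 4), and treated calves one of 108 ± 21.04 CPM (SD, n = 4). The log2 fold change was -0.45 (SE 0.21, unadjusted p = 0.0546, adjusted p = 0.876). On the TPM scale the groups overlapped, with a log2 fold change of -0.29. Without treated calf 4, the animal with the high adipocyte markers, it was -0.31 on the count scale (unadjusted p = 0.134). In round muscle SLC2A4 ranged from 81.4 to 171 CPM in control and from 57.9 to 139 CPM in treated calves, and the log2 fold change was -0.21 (SE 0.32). The diets overlapped in round muscle for all 10 members, whereas 1.76% of all genes had groups without overlap.

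SLC2A1 varied more between calves than between diets. Round levels in control calves 1 to 4 were 16.6, 2.76, 17.8 and 8.89 CPM, and in treated calves they were 1.91, 8.87, 8.99 and 8.23 CPM. Sirloin levels were 14.8, 1.23, 3.31 and 7.14 CPM in control and 2.01, 12.6, 7.16 and 11.9 CPM in treated calves. Control calf 2 and treated calf 1 were low in both muscles. The log2 fold change was -0.70 (SE 0.56, adjusted p = 0.891) in round and 0.35 (SE 0.70, adjusted p = 1.00) in sirloin muscle. The round value was -1.06 without control calf 2 (unadjusted p = 0.0465, adjusted p = 0.788) and -0.39 without treated calf 1, and the sirloin value ran from -0.013 to 1.11 when each calf was left out.

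HK2 had the largest log2 fold change of the members in sirloin muscle. Control calves 1 to 4 had 189.6, 177, 108 and 271 CPM, and treated calves 1 to 4 had 101, 157, 84.5 and 91.1 CPM. The groups overlapped through control calf 3, which lay among the treated calves, and treated calf 2. Control calves averaged 186 ± 66.8 CPM (SD, n = 4) and treated calves 108 ± 33.0 CPM (SD, n = 4), which gave a log2 fold change of -0.78 (SE 0.30, 95% interval -1.44 to -0.12), or 1.72-fold lower. Its unadjusted p-value was 0.0240 and its adjusted p-value 0.876. Leaving out each calf in turn gave -1.02 to -0.55, with -0.55 without control calf 4 (unadjusted p = 0.0914) and -0.70 without treated calf 4 (unadjusted p = 0.0576), and on the TPM scale it was -0.56 (unadjusted p = 0.0946).

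In round muscle HK2 was at 96.3, 149.8, 235 and 195 CPM in control and at 100.4, 121, 74.7 and 169 CPM in treated calves. These groups overlapped widely, and the log2 fold change was -0.52 (SE 0.33, adjusted p = 0.864). HK1, with means between 7.54 and 12.0 CPM in the 4 groups, had log2 fold changes of -0.15 (SE 0.35) in round and 0.05 (SE 0.32) in sirloin muscle.

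The glycogen enzymes did not differ between the diets beyond the spread of the calves. GYS1 ranged from 358 to 643 CPM in control and from 309.7 to 531 CPM in treated round muscle, a log2 fold change of -0.06 (SE 0.29). In sirloin muscle it ranged from 397 to 658 and from 252 to 526 CPM (log2 fold change of -0.42, SE 0.26, adjusted p = 0.876). PYGM had log2 fold changes of -0.01 (SE 0.33) and -0.41 (SE 0.29). The fast fibre markers had their lowest TPM sum of all round libraries in treated calf 2. In CPM, GYS1 and PYGM were also lowest there, at 309.7 and 2096 CPM. On the TPM scale of the markers PYGM was lowest there too, at 1371 TPM. GYS1 was not, at 162 TPM against 147 TPM in control calf 1. Without this calf the round log2 fold changes were 0.05 for GYS1 and 0.16 for PYGM, so that both turned sign around 0.

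GBE1 had log2 fold changes of opposite sign in the muscles by edgeR, but the sirloin sign was not stable. Round muscle of control calves 1 to 4 held 33.7, 34.5, 23.4 and 32.3 CPM, and that of treated calves held 44.4, 35.9, 60.2 and 29.9 CPM. Treated calves 1 to 3 lay above all 4 controls and treated calf 4 lay among them. The log2 fold change was 0.48 (SE 0.26, unadjusted p = 0.0895, adjusted p = 0.864), and without treated calf 3 it was 0.25. In sirloin muscle it was -0.15 (SE 0.33), with ranges of 24.6 to 58.4 CPM in control and 29.7 to 66.8 CPM in treated calves. The sirloin value was 0.043 on the TPM scale and -0.0074 without treated calf 4. By edgeR the diet difference in round minus that in sirloin muscle was 0.58 (SE 0.27, unadjusted p = 0.0542). It did not pass the adjusted threshold.

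PPP1R3C was lower in the treated means of both muscles, with a wide spread. In round muscle control calves 1 to 4 had 85.0, 77.9, 62.8 and 124 CPM, and treated calves had 12.5, 74.6, 11.5 and 108 CPM. Treated calves 1 and 3 were far below every control, whereas treated calves 2 and 4 lay within the control range. In sirloin muscle the levels were 42.7, 49.1, 23.8 and 79.8 CPM in control and 25.9, 23.2, 17.3 and 58.4 CPM in treated calves, and again the groups overlapped. The log2 fold changes were -0.75 (SE 0.62, adjusted p = 0.892) and -0.66 (SE 0.42, adjusted p = 0.876). Single calves moved both values in either direction. The round value was -0.42 without treated calf 1, -0.43 without treated calf 3 and -1.43 without treated calf 4 (unadjusted p = 0.0370, adjusted p = 0.7998). The sirloin value was -0.32 without control calf 4 and -1.14 without treated calf 4 (unadjusted p = 0.0109, adjusted p = 0.955).

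TXNIP and PDK4 also overlapped between the diets. TXNIP in round muscle was at 1906, 933, 1427 and 1576 CPM in control and at 814, 1658, 2220 and 2274 CPM in treated calves. In sirloin muscle the values were 1816, 769, 2584 and 2044 CPM and 1273, 2876, 1856 and 2248 CPM. Its log2 fold changes were 0.27 (SE 0.35) and 0.19 (SE 0.36). Control calf 2 and treated calf 1, which were lowest for SLC2A1, were lowest for TXNIP in both muscles as well.

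PDK4 had the widest range of the members. Control calves 1 to 4 had 6833, 855, 11020 and 13810 CPM in round muscle, and treated calves had 1801, 4349, 8824 and 5210 CPM. In sirloin muscle the levels were 6172, 691, 7895 and 8754 CPM in control and 1578, 5536, 8094 and 4121 CPM in treated calves. Both diets held calves at high and at low levels. The log2 fold change was -0.67 (SE 0.67, 95% interval -2.13 to 0.78) in round and -0.29 (SE 0.65, 95% interval -1.71 to 1.14) in sirloin muscle, and on the TPM scale the sirloin value was 0.17. When each calf was left out in turn, the round value ran from -0.29 without control calf 4 to -1.11 without treated calf 3, and it was -1.09 without control calf 2 (unadjusted p = 0.0428, adjusted p = 0.788). The sirloin value ran from -0.66 to 0.0048.

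**Figure D2:**
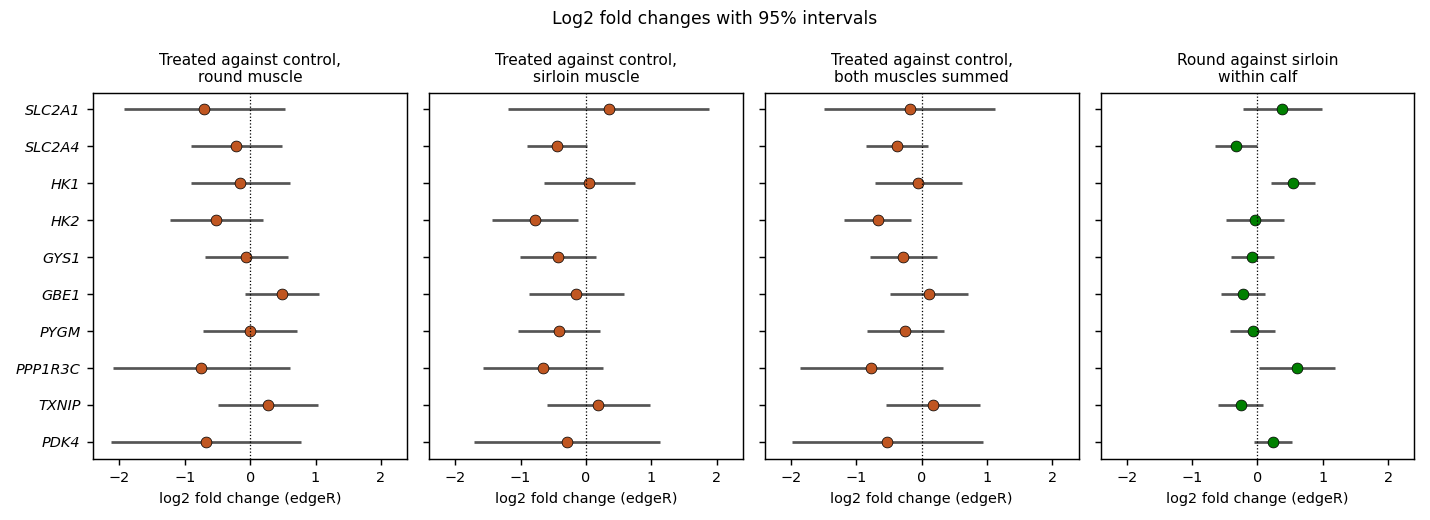
Log2 fold changes (points) with 95% intervals (lines) from edgeR for the 10 members, treated against control in round muscle, in sirloin muscle and over the summed counts of both muscles, and round against sirloin muscle within calf. HK2 was the only member whose diet interval excluded 0, in sirloin muscle and over both muscles, and the diet intervals of SLC2A1, PPP1R3C and PDK4 were the widest.

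When the counts of both muscles of a calf were added, a comparison chosen after the data were seen, 0 of 10 members passed the adjusted threshold, against 0.00437% of all genes. HK2 alone was below 0.05 without adjustment, against 3.85% of all genes, by edgeR, DESeq2 and limma-voom alike. Its log2 fold change was -0.67 (SE 0.23, unadjusted p = 0.0148, adjusted p = 0.933), and it lay between -0.80 and -0.50 when each calf was left out in turn. The geometric mean of both muscles was 135, 163, 159.5 and 229.9 CPM in control calves 1 to 4 and 101, 138, 79.5 and 124 CPM in treated calves, so that treated calf 2 overlapped with control calf 1.

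A further question was whether the diet difference itself differed between the muscles, with each calf as a block. Again 0 of 10 members passed the adjusted threshold, against 0.00437% of all genes, and DESeq2 and limma-voom also called 0. Without adjustment 1 member, SLC2A1, was below 0.05 by each of the 3 tools, against 3.78% of all genes by edgeR. Its diet difference in round minus that in sirloin muscle was -1.19 on the log2 scale (SE 0.45, unadjusted p = 0.0224, adjusted p = 1.00). The round minus sirloin difference was positive in all 4 control calves, from 0.17 to 2.41, and ran from -0.54 to 0.33 in treated calves. Control calf 3, with 17.8 CPM in round and 3.31 CPM in sirloin muscle, had the largest difference, and without it the value was -0.71 (unadjusted p = 0.0600).

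Comparing the muscles of the same calf gave smaller standard errors. By edgeR 0 of 10 members passed the adjusted threshold between round and sirloin muscle, against 0.533% of all genes, while 3 members (SLC2A4, HK1 and PPP1R3C) were below 0.05 without adjustment, against 11.2% of all genes. DESeq2 called 1 member after adjustment and 4 without it, and limma-voom called 0 and 2. Over all genes DESeq2 also called more after adjustment, 822 against 122 by edgeR. HK1 gave the smallest p-value. It had 10.7, 20.6, 6.97 and 9.87 CPM in round and 8.12, 9.76, 4.34 and 7.94 CPM in sirloin muscle of control calves 1 to 4. Treated calves had 14.6, 10, 9.83 and 8.15 CPM in round and 8.28, 7.26, 5.03 and 10.9 CPM in sirloin muscle.

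HK1 was thus higher in round muscle in 7 of 8 calves, all but treated calf 4. A difference in the same direction in at least 7 of 8 calves was seen for 12.3% of all genes. The log2 fold change of round against sirloin muscle was 0.54 (SE 0.16, 95% interval 0.20 to 0.88), which is 1.46-fold, with an adjusted p-value of 0.170 by edgeR, 0.0299 by DESeq2 and 0.174 by limma-voom. Without treated calf 4, whose sirloin library carried the high adipocyte markers, it was 0.67 with an adjusted p-value of 0.0272. Without any other calf the adjusted p-value was above 0.05. The sum of 5 smooth muscle markers was also higher in round muscle, at 87.0 to 259.8 TPM against 62.9 to 151 TPM in sirloin muscle, and its part in the HK1 difference was not tested.

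The other members with an unadjusted p-value below 0.05 had opposite directions. PPP1R3C was higher in round muscle in 6 of 8 calves (31.7% of all genes had the same direction in at least 6), with a log2 fold change of 0.60 (SE 0.27, adjusted p = 0.422), and treated calves 1 and 3 went the other way. SLC2A4 was lower in round muscle in 6 of 8 calves, with a log2 fold change of -0.33 (SE 0.15, adjusted p = 0.439), and control calf 2 and treated calf 3 went the other way. PDK4 was higher in round muscle in 7 of 8 calves, by 0.24 on the log2 scale (SE 0.13, adjusted p = 0.576). For GYS1, PYGM and HK2 the log2 fold change lay between -0.08 and -0.04, and leaving out single calves turned the sign of each.

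Ratios between partner genes within a library do not depend on the scaling of the library. Over 9 comparisons of 3 ratios, the lowest Benjamini-Hochberg adjusted p-value was 0.257. Diets were compared by a two-sided exact permutation test, and muscles by a two-sided exact sign-flip test over the 8 calves. The smallest p-value that 4 against 4 calves allow is 0.0286, and that of the sign-flip test is 0.00781. The HK1 to HK2 ratio in TPM was 0.0625, 0.0804, 0.0588 and 0.0428 in sirloin muscle of control calves and 0.119, 0.0677, 0.0869 and 0.174 in treated calves, a log2 difference of 0.82 (exact p = 0.0571) with treated calf 2 inside the control range. The SLC2A1 to SLC2A4 ratio was higher in round than in sirloin muscle in 6 of 8 calves, by 0.74 on the log2 scale (exact sign-flip p = 0.0547). The balance of synthase to phosphorylase, GYS1 to PYGM, had mean log2 differences between -0.03 and 0.03 in the 3 comparisons. Its ratios in single libraries ran from 0.0639 to 0.137, both ends of which lay in round muscle of control calves.

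The spread between calves was largest for PDK4. Its calf mean over both muscles ran from 769 to 11000 CPM, a 14.3-fold range. The lowest value was that of control calf 2, and without it and treated calf 1 the range was 4634 to 11000 CPM. The SD between calves of a diet was 1.43 on the log2 scale. The SD of the round minus sirloin difference was 0.26, which gave a ratio of 5.49. Muscles with equal spread and no relation within a calf would give a ratio of 0.5, since the first SD is that of a mean and the second that of a difference. SLC2A1 was next, with an SD between calves of 1.21 against 0.78 for the muscle difference, a ratio of 1.55. HK2, with SDs of 0.34 and 0.75, had a ratio of 0.45, near that of unrelated muscles. The remaining 7 members had ratios between 0.64 and 1.10.

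**Figure D3:**
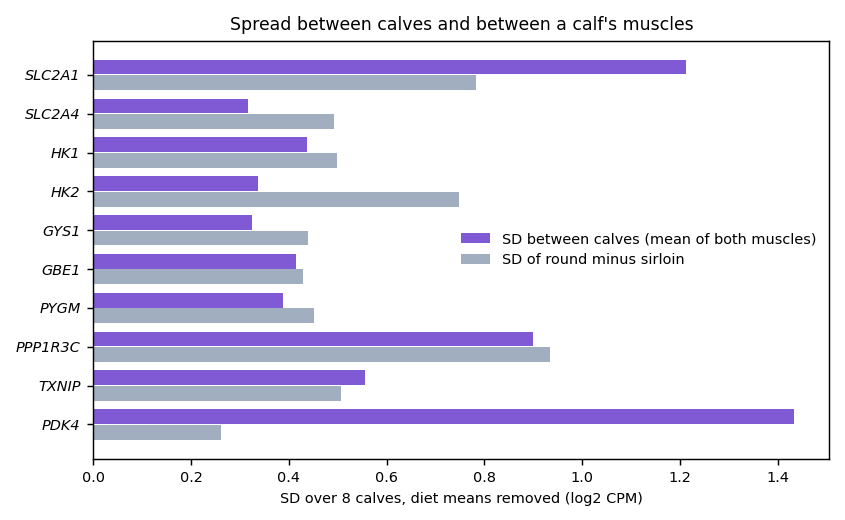
SD of the calf mean over both muscles (violet) and SD of the round minus sirloin difference (grey) in log2 CPM, over 8 calves with the diet means removed. PDK4 had the longest violet bar, 1.43, and the shortest grey bar, 0.26.

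The level in round muscle was then set against the level in sirloin muscle over the 8 calves. PDK4 had Pearson's r = 0.976 (exact permutation p = 0.000298, adjusted over 10 members 0.00298) and Spearman's rho = 0.952 (exact permutation p = 0.00114, adjusted 0.0114). Among 12315 genes with a mean of at least 1 CPM the median r was 0.59, and 0.333% of them had an r as high as PDK4. Control calf 2 and treated calf 1 lay far below the others. Without them r was 0.866 over 6 calves (exact permutation p = 0.0306, adjusted 0.153), and with the diet means removed it was 0.984 over 8 calves. The relation among the 6 calves had the same sign and did not pass the threshold after adjustment.

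PPP1R3C had r = 0.740 (exact permutation p = 0.0274, adjusted 0.137) and rho = 0.881 (exact permutation p = 0.00724, adjusted 0.0362), and r was 0.899 without treated calves 1 and 3 (exact permutation p = 0.0236, adjusted 0.153). An r at least as high as its 0.740 was seen for 27.5% of the 12315 genes. For SLC2A1 and TXNIP the r of 0.694 and 0.675 rested on control calf 2 and treated calf 1, and without them it was -0.35 and -0.52. The r of the other 6 members lay between 0.27 and 0.50, and 4 of 10 members exceeded the median of all genes.

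**Figure D4:**
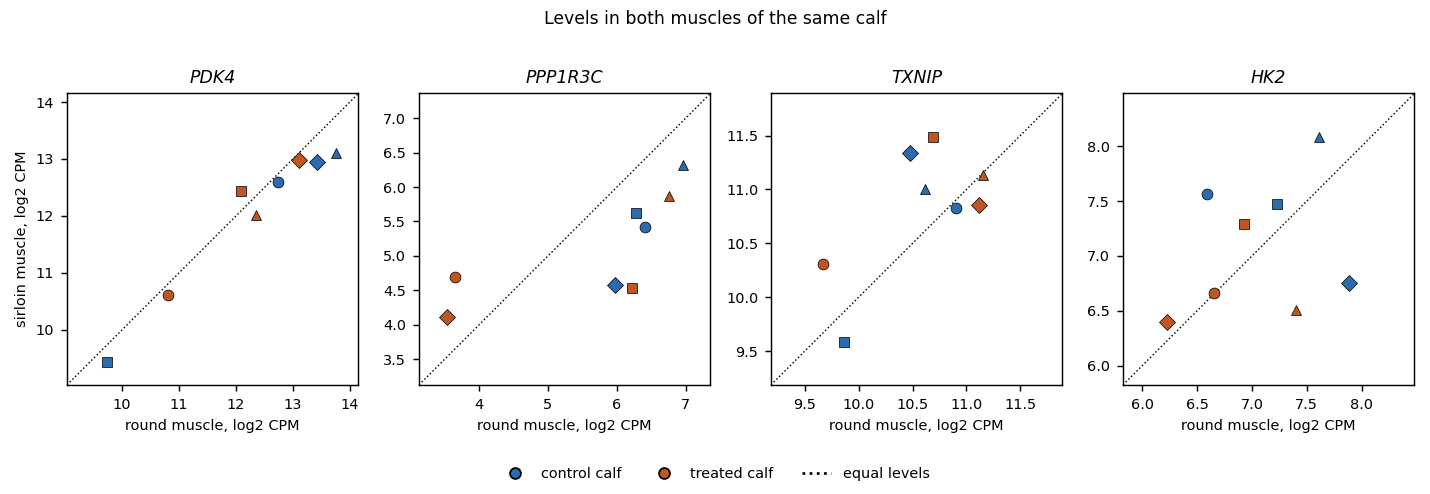
Round muscle (horizontal axis) against sirloin muscle (vertical axis) in log2 CPM for PDK4, PPP1R3C, TXNIP and HK2, 1 point per calf (blue control, orange treated), with a dotted line at equal levels. PDK4 points followed the line over a 14.3-fold range of calf means, whereas HK2 points scattered to both sides of it.

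Control calf 2 and treated calf 1 shared a profile over several members. Their calf means were the lowest for PDK4 (769 and 1686 CPM), TXNIP (847 and 1018 CPM, against 1795 to 2261 CPM in the other calves) and SLC2A1 (1.88 and 2.00 CPM, against 7.72 to 15.7 CPM). They were the highest for GYS1 (651 and 529 CPM, against 327 to 443 CPM) and HK1 (14.2 and 11.04 CPM). One of these calves belonged to each diet. Control calf 2 also had the highest library total of each muscle, 72446933 counts in round and 72165291 counts in sirloin muscle. It was the only calf whose TPM summed to exactly 1000000. The study called the round control sample that it labelled C2 an outlier. The part of these traits in the profile was not tested. The 45 pairs of members were examined after the data were seen. Over all 8 calves, 11 of them had an unadjusted exact permutation p below 0.05 for r. The share of such pairs among other genes was not computed, so the count cannot be read as a trait of the members. After adjustment 1 pair passed. This was GYS1 and TXNIP, with r = -0.948 (exact permutation p = 0.00067, adjusted 0.0301) and rho = -0.905 (exact permutation p = 0.00456, adjusted 0.103). Among 12314 other genes, 0.211% had a correlation of at least this size with GYS1, and 0.268% with TXNIP. For GYS1 and PYGM over 8 calves (r = 0.842) the shares were 3.6% with GYS1 and 1.43% with PYGM. For HK1 and PDK4 (r = -0.835) they were 3.6% with HK1 and 9.49% with PDK4. Because control calf 2 and treated calf 1 formed a range of their own, the pairs were also taken over 6 calves. For GYS1 and TXNIP the same calves were left out, and r was -0.77 (exact permutation p = 0.0778, adjusted 0.7604). Over the same 6 calves GYS1 and PYGM had r = 0.914 (exact permutation p = 0.0153, adjusted over 45 pairs 0.688) and rho = 0.829 (exact permutation p = 0.0583, adjusted 0.976). Without the 2 calves farthest from the median of PYGM their r was 0.76. Other pairs changed sign over the same 6 calves. For TXNIP and PDK4 r turned from 0.863 to -0.83, for SLC2A1 and PDK4 from 0.830 to -0.56. For GYS1 and PDK4 it turned from -0.79 to 0.51, for SLC2A1 and GYS1 from -0.81 to 0.27. For SLC2A1 and TXNIP it fell from 0.930 to 0.028. No pair passed after adjustment when the 2 calves farthest from the median of one of its genes were left out.

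The genes whose log2 CPM over the 16 libraries was most like that of a member, with the mean of each muscle removed, were listed as a description, since both muscles of a calf are not independent. PDK4 was followed most closely by ZFAND5 (r = 0.971), RETREG1 (r = 0.964) and CCNE2 (r = 0.959) among 12315 genes. TXNIP was nearest to GRAMD1A (r = 0.943), HK1 to GNAI2 (r = 0.946), SLC2A1 to ERLIN1 (r = 0.921), SLC2A4 to RAP1GAP2 (r = 0.905) and GYS1 to TNPO3 (r = 0.905). PPP1R3C was nearest to THAP2 (r = 0.891), HK2 to UBE2J1 (r = 0.857) and GBE1 to DNAJC19 (r = 0.847). For PYGM the first were POLR2J and ASB16 (both r = 0.8998), followed by PHKG1 (r = 0.896), the catalytic subunit of the muscle phosphorylase kinase that activates PYGM.

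The wider pathway was described with 59 further genes of glucose transport, phosphorylation, glycogen metabolism, glucose sensing and pyruvate dehydrogenase control. Between the diets 0 of 59 passed the adjusted threshold in round muscle and 0 of 58 tested in sirloin muscle, by edgeR, DESeq2 and limma-voom. Without adjustment edgeR called 1 and 6 of them, DESeq2 1 and 5 and limma-voom 0 and 8, beside 4.41% and 3.91% of all genes by edgeR. The median log2 fold change was -0.02 in round and -0.09 in sirloin muscle, against 0.02 and 0.03 over all genes. The list of 11 genes of pyruvate dehydrogenase and its control, which act at the same step as PDK4, had a median of -0.14 in round and -0.42 in sirloin muscle, where 2 were below 0.05 without adjustment. The 7 matched skeletal muscle markers had medians of 0.21 in round and -0.40 in sirloin muscle, where all 7 were lower. Whether these sirloin values were related was not tested. PDP1, a phosphatase that reactivates pyruvate dehydrogenase, had 42.8, 47.9, 45.9 and 50.6 CPM in sirloin muscle of control and 38.7, 31.4, 24.4 and 25.3 CPM in that of treated calves. These groups did not overlap, as for 1.68% of all genes, and the log2 fold change of this gene, named for having the smallest p-value of the list, was -0.65 (SE 0.20, adjusted p = 0.876).

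EPM2A, the glycogen phosphatase laforin, had a sirloin log2 fold change of -0.57 (SE 0.22) and PHKG2, another catalytic subunit of phosphorylase kinase, one of 0.53 (SE 0.20), both with an adjusted p-value of 0.876. In round muscle TBC1D1, a regulator of GLUT4 trafficking, had a log2 fold change of 1.15 (SE 0.55) and SLC2A10, another transporter with at most 2.24 CPM, one of -1.79 (SE 0.96), both with an adjusted p-value of 0.864. Each rested on 1 calf. Without treated calf 2, at 146 CPM and with the high slow fibre markers, TBC1D1 was at 0.39, and without control calf 2, at 2.24 CPM, SLC2A10 was at -0.026. SLC2A3, encoding the high-affinity transporter GLUT3, had the largest diet value of the named genes, a log2 fold change of 2.35 in round and 2.28 in sirloin muscle (unadjusted p = 0.0269 and 0.0473). It also rested on 1 animal. Treated calf 4 had 232 CPM in round and 222 CPM in sirloin muscle, whereas the other 7 calves had 5.93 to 24.2 CPM in round and 5.82 to 28.1 CPM in sirloin muscle. Without this calf the log2 fold changes were 0.06 and -0.16.

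Between the muscles 3 of 59 pathway genes passed the adjusted threshold, against 0.533% of all genes, and all 3 were lower in round muscle in 8 of 8 calves. They were named for passing this test on the same calves, so their shared direction over calves is no separate result. A same direction in at least 7 of 8 calves was seen for 12.3% of all genes. MLXIPL, the carbohydrate-responsive transcription factor ChREBP, had 6.28, 8.07, 17.0 and 12.0 CPM in round and 24.5, 16.9, 55.5 and 34.3 CPM in sirloin muscle of control calves 1 to 4. Treated calves had 5.13, 13.1, 26.1 and 11.7 CPM in round and 27.1, 19.2, 62.5 and 32.6 CPM in sirloin muscle. Every calf had less in round muscle, with a log2 fold change of -1.49 (SE 0.17, adjusted p = 0.00286), and it lay between -1.62 and -1.37 when each calf was left out.

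PPP1R3B, a glycogen-targeting subunit of protein phosphatase 1 like PPP1R3C, was lower in round muscle, whereas PPP1R3C did not pass the threshold in either direction. It ranged from 59.8 to 137 CPM in round and from 112 to 227 CPM in sirloin muscle, with a log2 fold change of -0.91 (SE 0.13, adjusted p = 0.00793). SLC2A4RG, a factor known to bind the SLC2A4 promoter, ranged from 2.62 to 11.5 CPM in round and from 4.91 to 15.5 CPM in sirloin muscle, with a log2 fold change of -0.92 (SE 0.16, adjusted p = 0.0213). SLC2A4 itself had the same sign without passing the threshold. Without treated calf 4 all 3 still passed, with adjusted p-values of 0.00270, 0.00181 and 0.00924. The call of SLC2A4RG was lost without control calf 1, 2 or 4 or treated calf 1 (adjusted p = 0.0526, 0.0585, 0.0778 and 0.0638).

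**Figure D5:**
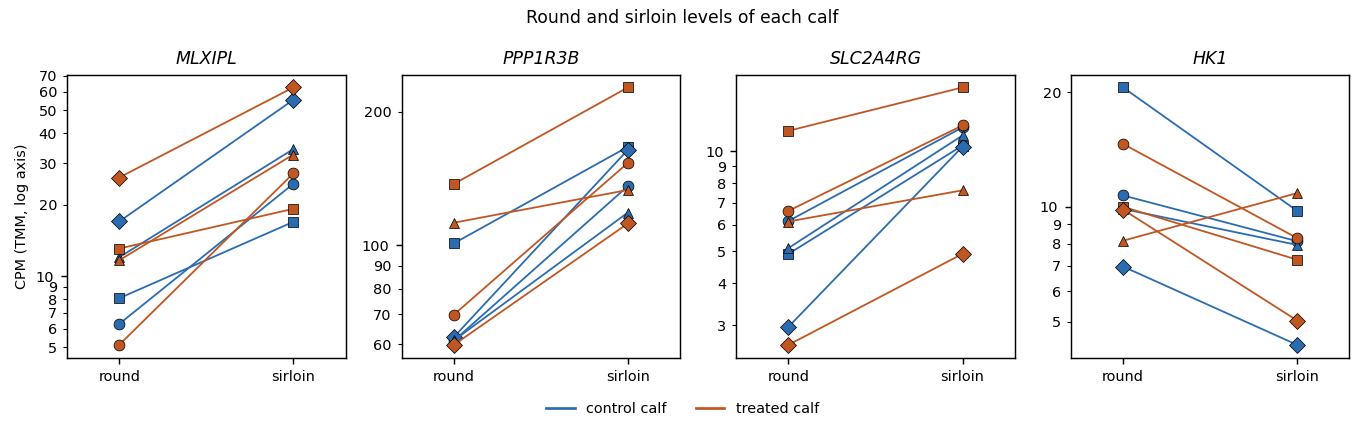
CPM (TMM, log axis) in round and sirloin muscle for MLXIPL, PPP1R3B, SLC2A4RG and HK1, with a line joining both muscles of each calf (blue control, orange treated). The first 3 genes were lower in round muscle in all 8 calves, and HK1 was higher in round muscle in 7 of 8.

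A total of 14 pathway genes were below 0.05 between the muscles without adjustment, 4 higher and 10 lower in round muscle, where 11.2% of all genes were below it. After adjustment DESeq2 called 9 and limma-voom 3 of the pathway genes, and DESeq2 called 822 of all genes against 122 by edgeR. By role, 4 of the 7 alpha-arrestins and glucose-sensing factors were among the 14, with a list median of -0.45, against -0.00 over all genes. Of 11 genes of glycogen targeting and control, 4 were among them, with a median of -0.06. Of 9 genes of glycogen breakdown, 1 was, and of 3 further hexokinases, 0 were. For the difference of the diet effect between the muscles, 0 of 59 passed adjustment by any of the 3 tools, and 3 (PYGB, PDK2 and SLC2A4RG) were below 0.05 without it by edgeR (3.78% of all genes), 5 by DESeq2 and 3 by limma-voom.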

How the data were processed

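The deposited read counts are whole numbers per gene that the authors did not normalize. The authors' normalized table holds values that sum to between 999756 and 1000000 in each library, and it was read as TPM per the file headers and sums. Control calf 2 summed to exactly 1000000 in both muscles, the other 14 libraries to at most 999858. The submitters' processing notes name FastQC, Trimmomatic, STAR, featureCounts, DESeq2 and the build ARS-UCD1.2 with poly(A) selection, whereas the study's methods name a stranded ribosomal RNA depletion kit, SortMeRNA, HISAT2, Bowtie2 and StringTie. Which of these made the tables, and whether reads were counted by strand, is not given in the sources used here, so overlapping antisense reads cannot be told apart. Tables of the authors' own comparisons (fold change, p-value, adjusted p-value) were not used.

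Symbols were matched through a RefSeq gene table to 30762 of 34109 gene IDs (90.2%). Genes with at least 1 count in any library entered edgeR 4.0.16 (TMM factors, glmQLFit, glmQLFTest; R 4.3.3). Diets were fitted in each muscle without covariates, and the muscles and the difference of the diet effects over 16 libraries with calf as a block. All tests were two-sided, with Benjamini-Hochberg adjustment over all genes at a threshold of 0.05. The SE is the log2 fold change divided by the square root of F. Shown CPM use TMM factors over 16 libraries (0.862 to 1.12). Log2 CPM used a prior count of 2 and TPM a pseudocount of 1. The labels give both muscles of a calf the same calf number, and their deviations from group means correlated at 0.311 to 0.765, against -0.524 to 0.456 for muscles of other calves. Alternatives were DESeq2 1.42.0, limma-voom and limma on TPM (limma 3.58.1), other size factors, filterByExpr, blocks and leaving out each calf. The fits were also run on simulated counts with large planted changes and no calf effects. That run does not show how well differences of the size seen here would be found.

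The members, the pathway list and the marker lists were chosen with earlier results of these data known. Named pathway genes were, per comparison, those past the threshold and the 3 with the smallest p-values, and for each member the genes with the highest correlation over 16 libraries. The sirloin values of SLC2A3 and the profile of control calf 2 and treated calf 1 were chosen after their values were seen.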

Additional observations from a re-analysis of the deposited data

Results flagged for a closer look

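In 40 groups of 4 calves (10 members, 2 muscles, 2 diets), 2 held a library set apart from the other 3 by Dixon's criterion, which flags about 1 in 20 groups by chance. SLC2A1 in round muscle of treated calf 1 was the lowest, at 1.91 CPM against 8.87, 8.99 and 8.23 CPM. GYS1 in round muscle of control calf 2 was the highest, at 643 CPM against 358, 382 and 365 CPM. Both calves had similar values in sirloin muscle, at 2.01 CPM for SLC2A1 in treated calf 1 and 658 CPM for GYS1 in control calf 2.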

How the results depend on the processing

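At 4 calves a diet, the 95% intervals of PDK4, SLC2A1 and PPP1R3C in round muscle spanned more than 1 log2 unit to a side, so that smaller diet differences in them were not detectable. No member passed the adjusted threshold under any alternative except HK1 between the muscles, at 0.55 by DESeq2 and at 0.67 without treated calf 4. The count of all genes past the threshold between the diets was 2 with a replicate block, 46 by DESeq2 and 1 by limma-voom in round muscle (main 4), 0, 13 and 0, and 0 on the TPM scale, in sirloin muscle (main 2), and 0, 46 and 0 over both muscles (main 1). Calves of the same number in different diets were not paired (correlations of -0.0436 to 0.290 in round and -0.280 to 0.274 in sirloin muscle). Between the muscles the count was 14 with no replicate block and 822 by DESeq2 (main 122), with 1 member by DESeq2 and with 0 and 9 pathway genes (main 3). Without the block MLXIPL was at -1.47, PPP1R3B at -0.88 and SLC2A4RG at -0.88, none past the threshold. For the difference of the diet effects it was 0 with no replicate block and 9 by DESeq2 (main 1). The cause of these shifts was not tested.

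Some signs reversed. On the TPM scale the diet values were 0.0042 for HK1, 0.040 for GYS1 and 0.015 for PYGM in round muscle and 0.043 for GBE1 and 0.17 for PDK4 in sirloin muscle, where PDK4 was at 0.0026 by limma-voom. In sirloin muscle the TPM value lay above the edgeR value for every member, as for HK2 (-0.56 against -0.78) and SLC2A4 (-0.29 against -0.45). The same held in round muscle except for PPP1R3C (-1.18 against -0.75). The TMM factors of the sirloin fit were 0.854 to 1.02 in control and 0.995 to 1.13 in treated calves. The part of this scaling in the diet values was not tested. With no replicate block TXNIP was at 0.060 for the difference of the diet effects, and with a replicate block HK1 was at 0.017 over both muscles. The correlation of a calf's muscles was -0.10 for HK2 with diet means removed. Without the 2 calves farthest from the median it was -0.35 for SLC2A1, -0.25 for SLC2A4, -0.53 for GYS1, -0.52 for TXNIP and 0.866 for PDK4.

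Leaving out each calf in turn gave 0 to 3 genes past the threshold in round muscle, 0 to 1 in sirloin muscle, 0 to 2 over both muscles, 44 to 368 between the muscles, with 0 to 1 members and 2 to 5 pathway genes, and 0 to 2 for the difference of the diet effects. Signs reversed for SLC2A4 (-0.45 to 0.026), HK1 (-0.36 to 0.21), GYS1 (-0.22 to 0.16) and PYGM (-0.27 to 0.16) in round muscle, for SLC2A1 (-0.013 to 1.11), HK1 (-0.14 to 0.21), TXNIP (-0.063 to 0.42) and PDK4 (-0.66 to 0.0048) in sirloin muscle, and for SLC2A1 (-0.52 to 0.25), HK1 (-0.25 to 0.23), GBE1 (-0.055 to 0.25) and TXNIP (-0.048 to 0.40) over both. They also reversed for HK2 (-0.19 to 0.11), GYS1 (-0.22 to 0.0056) and PYGM (-0.21 to 0.0052) between the muscles, for HK1 (-0.31 to 0.12), HK2 (-0.044 to 0.66) and TXNIP (-0.26 to 0.11) in the difference of the diet effects, and for the ratios SLC2A1 to SLC2A4 in round muscle (-1.20 to 0.11) and GYS1 to PYGM in round (-0.16 to 0.21), sirloin (-0.14 to 0.059) and between muscles (-0.079 to 0.085).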
